A study of Mus musculus with 4 samples.

Results

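Integrins and the other genes by which cells hold on to extracellular matrix were followed in mouse skeletal stem cells after ovariectomy. The set held 34 of the 55487 genes in the deposited count table, chosen by name: 13 integrin alpha chains, 8 integrin beta chains, the beta-like gene Itgbl1, the collagen receptor kinases Ddr1 and Ddr2, the 4 syndecans and 6 adaptor genes of focal adhesions. Alpha chains found only on leukocytes were left out of the set. The libraries came from wild-type mouse skeletal stem cells that were released from the metaphyses of long bones with collagenase and sorted by flow cytometry on CD51 and CD200, on the blood and endothelial antigens CD45, Ter119 and Tie2, and on 6C3, CD90 and CD105. The labels name these stains without the gates. There were 2 libraries from ovariectomized mice and 2 from sham-operated mice, all with the time 8 weeks, which the labels give as neither an age nor a time after surgery. Removing the ovaries takes away most circulating oestrogen and leads to bone loss in mice. The labels do not say whether the libraries of a group came from separate animals or pools, so p-values measure the spread between these libraries, which may be technical.

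As background, an integrin is a heterodimer of 1 alpha and 1 beta chain. The alpha chain sets much of the choice of ligand: collagens, laminins, or proteins such as fibronectin, vitronectin and osteopontin that carry the tripeptide RGD. Inside the cell, talin and kindlins bind the tail of the beta chain and switch the receptor on, and vinculin, paxillin, focal adhesion kinase and integrin-linked kinase join it to actin and to signalling. Syndecans are heparan sulfate proteoglycans of the cell surface that bind matrix alongside integrins, and discoidin domain receptors are tyrosine kinases that bind fibrillar collagen directly. In the skeleton, such receptors anchor progenitors, chondrocytes and osteoblasts to their matrix.

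The libraries held 23228031 and 18291436 counts (ovariectomy 1 and 2) and 22935095 and 23721078 counts (sham 1 and 2). Levels are given as CPM, which are counts scaled to a common library size by the trimmed mean of M-values (TMM), in the order of the library numbers. Of the sort antigens, Itgav (CD51) is a member and is described below. Cd200 stood at 173 and 155 CPM after ovariectomy and at 237 and 305 CPM in sham cells and was called lower (edgeR adjusted p = 0.0462). Eng (CD105) had 75.2 and 83.1 CPM after ovariectomy and 21.6 and 52.1 CPM in sham cells, and Enpep (6C3) had 4.40 and 3.64 CPM and 1.52 and 1.91 CPM in the same order. Ptprc (CD45) had 3.55 and 6.44 CPM after ovariectomy and 9.55 and 5.25 CPM in sham cells, Tek (Tie2) had 7.53 and 9.76 CPM and 0.223 and 5.52 CPM, and Thy1 (CD90) had between 3 and 5 counts in each library. Ptprc and Tek were thus low and Cd200 was well expressed in both groups.

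Of the 34 members, 33 had enough reads to be tested. Itgb6, the partner of the alpha v chain in epithelia, had 2 and 5 counts after ovariectomy and 4 and 5 counts in sham cells and was not tested. Itgb8 passed the filter through the ovariectomy libraries, since 1 of its sham libraries lay under the filter's 0.433 CPM. Calls rest on edgeR's quasi-likelihood test at an adjusted p under 0.05 over the 17120 genes tested. Fold changes divide ovariectomy by sham.

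After ovariectomy the genes called higher were Itgb8, Fermt2, Itgbl1, Sdc2 and Itga6: a beta chain, an activator of integrins, a secreted beta-like protein, a syndecan and a laminin-binding alpha chain. That was 5 of the 33 tested members (15.2%), beside 2.98% of all tested genes called higher. The members were chosen with earlier results of these data known, so this is not an independent comparison. Of members called lower there were 0, beside 1.2% of all tested genes, where 4.18% were called in either direction. At an unadjusted p under 0.05 there were 14 higher members and 1 lower member, beside 10.6% and 7.83% of all tested genes. The DESeq2 test called 10 members higher and 1 lower, beside 5.54% and 2.89% of the genes it tested, and limma-voom called 8 higher and 1 lower, beside 3.7% and 1.83%. The log2 fold change was above 0 for 25 of the 33, against 48.7% of all tested genes. The median log2 fold change of the tested members was 0.38, and that of all tested genes was -0.02. Both ovariectomy libraries lay above both sham libraries for 20 members and below both for 2, where the background was 25.5% and 23.9% of tested genes. The remaining 11 overlapped.

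**Figure D1:**
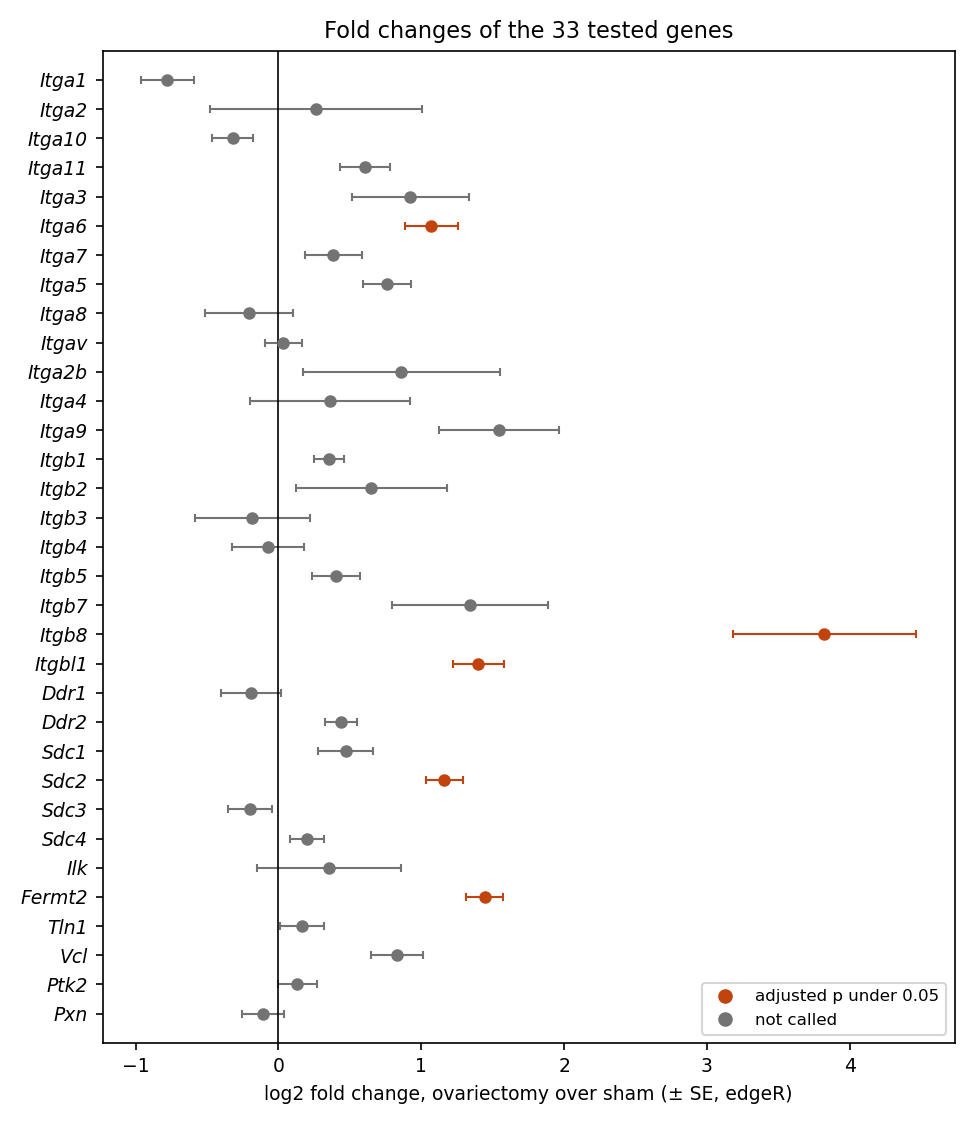
Log2 fold changes of the 33 tested members, ovariectomy over sham (x axis), with bars of 1 standard error from the edgeR fit of 2 ovariectomy and 2 sham libraries. Orange points are the 5 genes with an adjusted p under 0.05, and all 5 lie right of 0, with Itgb8 farthest at 3.82.

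The calls were lost without either ovariectomy library, while the fold changes stayed near those of all 4 libraries, which are given below gene by gene. Without ovariectomy 1, edgeR called 0 members (11 at an unadjusted p under 0.05), and without ovariectomy 2 it called 0 (11 at an unadjusted p under 0.05), as it called 0 of all genes in both fits. Without ovariectomy 1 and without ovariectomy 2, the log2 fold change was 3.87 and 3.81 for Itgb8, 1.498 and 1.422 for Fermt2, 1.39 and 1.44 for Itgbl1, 1.18 and 1.17 for Sdc2 and 1.26 and 0.89 for Itga6. Without sham 1 it called 6 members, and without sham 2 it called 12, of which 11 were higher and 1, Itga1, lower. The 5 genes named above remained called in both of the fits that left out a sham library and in all 10 alternatives with 4 libraries.

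**Figure D2:**
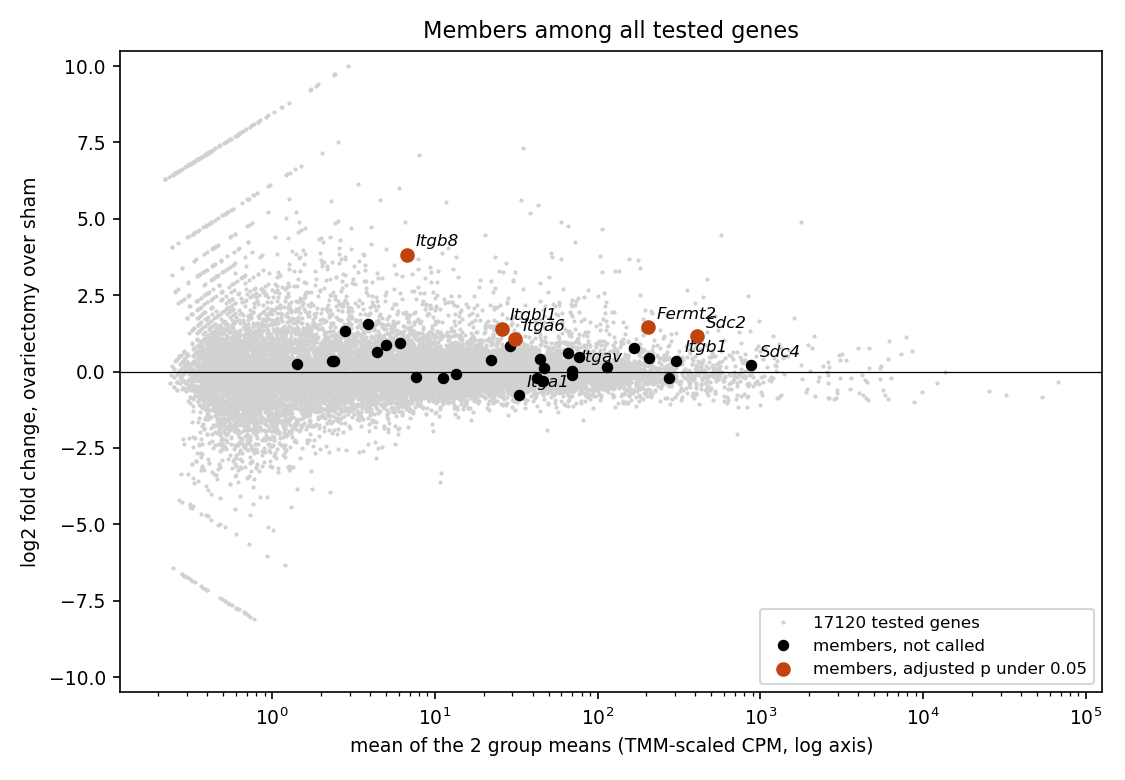
Log2 fold change, ovariectomy over sham (y axis), against mean level in TMM-scaled CPM (x axis, log scale) for the 17120 tested genes in grey and the 33 tested members in black or, where called, orange. Sdc2 and Fermt2 are abundant genes, and Itgb8, at the largest fold change of the members, is a low one.

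Other cells in the sorted fraction bear on how these values are read, since in bulk RNA more cells of a type and more RNA per cell cannot be told apart. The counts of called markers that follow stand beside 2.98% of all tested genes called higher and 1.2% called lower. Of 12 tested fibroblast markers, 7 were called higher and 1 lower, with a summed level of 9475 and 9977 CPM after ovariectomy and 8783 and 11415 CPM in sham cells. Of 12 pericyte and smooth muscle markers, 3 were called higher and 0 lower (4 and 1 at an unadjusted p under 0.05), and the sum was 630.5 and 698 CPM after ovariectomy and 347 and 381 CPM in sham cells. The pericyte sums stood apart between the groups, but the gap lay almost wholly in Rgs5, picked out after its values were seen. Rgs5 had 295 and 361 CPM after ovariectomy and 5.66 and 46.4 CPM in sham cells. Of the 12 pericyte markers, 6 were higher in both ovariectomy libraries, 1 was lower in both and 5 overlapped. The fibroblast sums overlapped, but Dcn, Lum and Fmod, picked out after their values were seen, made up 93.8% and 93.7% of them after ovariectomy and 98.7% and 98.5% in sham cells. Dcn, Lum and Fmod had fold changes from 0.654 to 1.13, and 0 of these genes were higher in both ovariectomy libraries. The other 9 fibroblast markers were all higher in both ovariectomy libraries, by 2.97-fold to 10.7-fold. They summed to 587 and 634 CPM after ovariectomy and 118 and 173 CPM in sham cells. Of all 12 fibroblast markers, 9 were thus higher in both ovariectomy libraries, 2 were lower in both and 1 overlapped.

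Of 15 chondrocyte markers, 13 were called lower, with a sum of 80114 and 71321 CPM after ovariectomy and 136681 and 125343 CPM in sham cells. Of 15 osteoblast markers, 6 were called lower and 1 higher, with a sum of 87832 and 79249.9 CPM after ovariectomy and 96508 and 131265 CPM in sham cells. Both sums were lower in both ovariectomy libraries, but much of each lay in a single gene. Col1a1, an osteoblast marker, had 61075 and 57192 CPM after ovariectomy and 62492 and 88749 CPM in sham cells. It was not called (edgeR adjusted p = 0.258). Col2a1, a chondrocyte marker, had 40259 and 36879 CPM after ovariectomy and 73169 and 65394 CPM in sham cells and was called lower. Of 17 leukocyte markers 3 were called higher (192 and 301 CPM in sum after ovariectomy, 108 and 86.6 CPM in sham cells), of 11 erythroid markers 5 (185 and 261 CPM after ovariectomy, 56.7 and 41.0 CPM in sham cells), and of 6 osteoclast markers 2 higher and 1 lower (834 and 789 CPM after ovariectomy, 499.6 and 540.4 CPM in sham cells). Rhag, an erythroid marker, had 0 counts in both sham libraries, and no marker of any list was at 0 in all 4. The part of these cells in the members' changes was not tested.

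Among the beta chains, Itgb8 changed most. Its gene (ENSMUSG00000025321) lies at chr12:119158022-119238802 on the minus strand of GRCm38, and its product pairs with alpha v alone and is known for releasing active TGF-beta from its latent complex. It had 294 and 249 counts after ovariectomy and 6 and 34 counts in sham cells, or 12.4 and 12.9 CPM and 0.268 and 1.51 CPM. The ovariectomy libraries were close to each other and far above both sham libraries, which differed from one another. The means of 12.7 ± 0.355 CPM after ovariectomy and 0.891 ± 0.881 CPM in sham cells (SD, n = 2 each) differed 14.2-fold (log2 fold change of 3.82 ± 0.64 SE, edgeR adjusted p = 0.0207). The size rests on the sham libraries: it was 3.06 without sham 1 and 5.55 without sham 2. Sham 1, the lower library, also had the lower endothelial sum of the sham libraries. The endothelial sum was 67.4 and 96.9 CPM after ovariectomy and 27.3 and 86.2 CPM in sham cells. Sham 2 lay between the ovariectomy libraries in this sum and below both of them for Itgb8. The pericyte marker Rgs5, picked out above, was also lower in sham 1 than in sham 2, and both lay far below the ovariectomy libraries. Its list did not share this pattern throughout. Of the 12 pericyte markers, 6 were higher in both ovariectomy libraries, 1 was lower in both and 5 overlapped. Cspg4 was the lower one and Pdgfrb overlapped, and both were higher in sham 1 than in sham 2. The endothelial list had 0 of 12 members called by edgeR (1 at an unadjusted p under 0.05). The part of either cell type in the Itgb8 value was not tested.

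Itgb1, the beta chain shared by the collagen, laminin and fibronectin receptors, was by far the most abundant one. It had 349 and 334 CPM after ovariectomy and 267 and 267 CPM in sham cells. The groups did not overlap, but the difference did not pass (1.28-fold, log2 fold change of 0.35 ± 0.11 SE, edgeR adjusted p = 0.130, 0.0337 with the DESeq2 test). Itgb5, which pairs with alpha v to bind vitronectin, had 51.2 and 49.8 CPM after ovariectomy and 33.4 and 43.1 CPM in sham cells (log2 fold change of 0.40 ± 0.17 SE, edgeR adjusted p = 0.267).

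Itgb3, the beta chain of the platelet and osteoclast integrins, overlapped between groups at 6.30 and 8.15 CPM after ovariectomy and 5.26 and 11.1 CPM in sham cells. Itgb4, the hemidesmosome partner of alpha 6, overlapped too, at 11.1 and 15.4 CPM after ovariectomy and 13.0 and 14.7 CPM in sham cells. The leukocyte beta chain Itgb2 had 3.76 and 6.96 CPM after ovariectomy and 4.77 and 2.05 CPM in sham cells. Itgb7, the lymphocyte beta chain, had 2.58 and 5.45 CPM after ovariectomy and 1.47 and 1.69 CPM in sham cells (log2 fold change of 1.34 ± 0.55 SE, edgeR adjusted p = 0.250). Both leukocyte chains were highest in ovariectomy 2, which also had the highest leukocyte marker sum. Itgb2 was higher in sham 1 than in ovariectomy 1, while that sum was 108 CPM in sham 1 and 192 CPM in ovariectomy 1. The relation of these chains to the sum was not tested.

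Itgbl1 (ENSMUSG00000032925, chr14:123659971-123975618, plus strand) encodes a secreted protein built from the cysteine-rich repeats of a beta chain stalk, with no membrane anchor. It had 37.9 and 36.8 CPM after ovariectomy and 15.0 and 13.3 CPM in sham cells. The libraries of each group were close together and the groups stood well apart, at 37.3 ± 0.815 CPM after ovariectomy and 14.1 ± 1.25 CPM in sham cells (SD, n = 2 each), a 2.64-fold increase (a log2 fold change of 1.40 ± 0.18 SE, edgeR adjusted p = 0.00800).

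**Figure D3:**
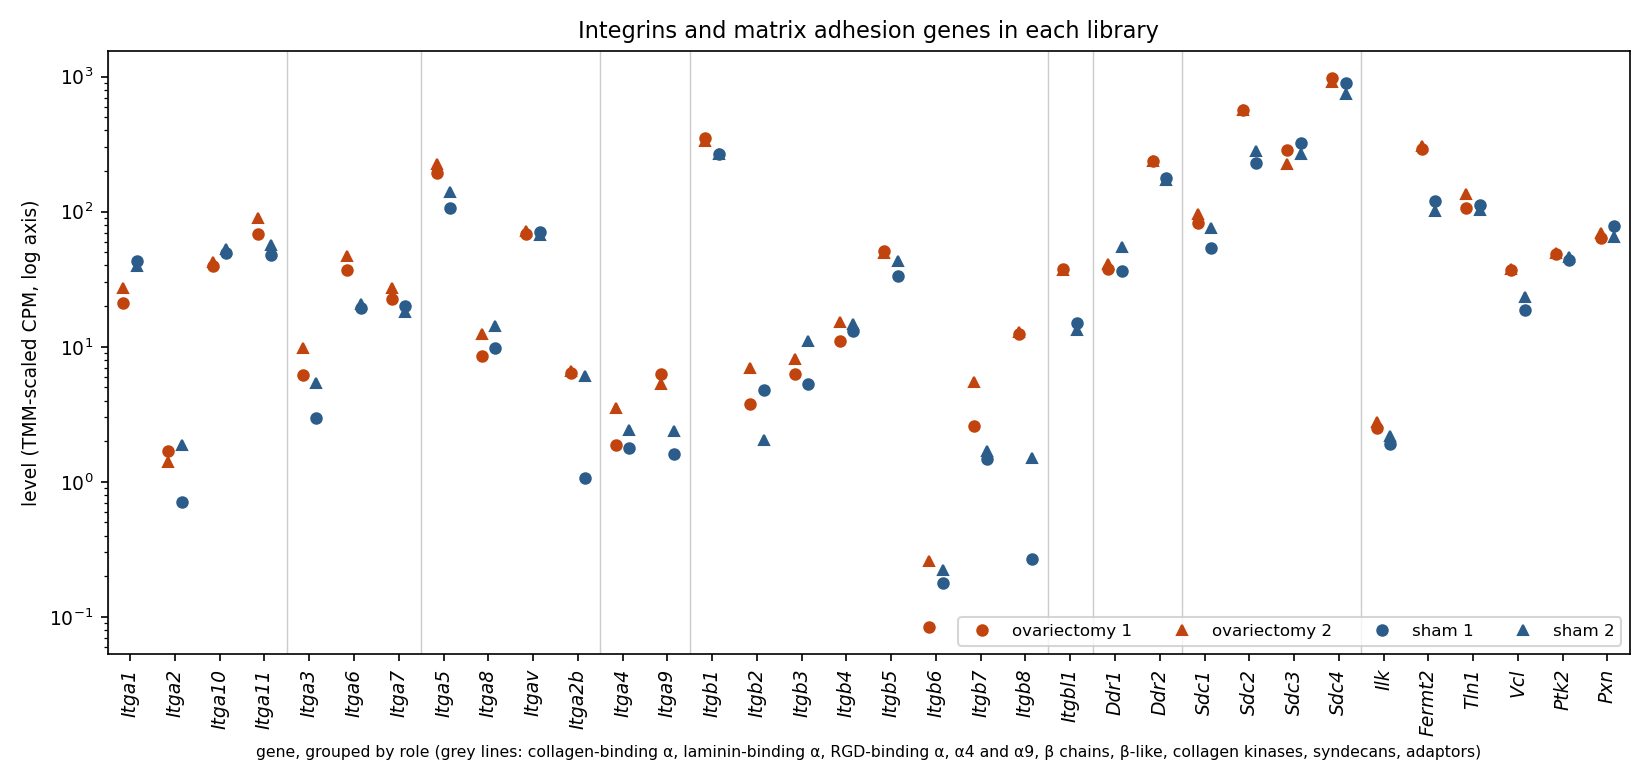
Level of each of the 34 members in each library in TMM-scaled CPM (y axis, log scale), with ovariectomy libraries in orange left of sham libraries in blue, circles for library 1 and triangles for library 2. Sdc4, between 747 and 975 CPM, is the most abundant by this measure, and Itgb6 is under 0.3 CPM throughout.

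Among the alpha chains, 1 of the 3 laminin receptors was called, and all 3 had a fold change above 1. Itga6 (ENSMUSG00000027111, chr2:71745616-71858416, plus strand), the alpha chain of the main laminin receptors alpha 6 beta 1 and alpha 6 beta 4, had 36.7 and 47.2 CPM after ovariectomy and 19.4 and 20.6 CPM in sham cells. Both ovariectomy libraries lay above both sham libraries, and the level rose 2.10-fold (log2 fold change of 1.07 ± 0.19 SE, edgeR adjusted p = 0.0238). Itga3, which also binds laminins, had 6.22 and 9.71 CPM after ovariectomy and 2.99 and 5.39 CPM in sham cells (log2 fold change of 0.92 ± 0.41 SE, edgeR adjusted p = 0.297). Itga7, the laminin receptor of muscle, had 22.5 and 27.3 CPM after ovariectomy and 20.2 and 18.0 CPM in sham cells (log2 fold change of 0.38 ± 0.20 SE, edgeR adjusted p = 0.374). The groups did not overlap in any of the 3, and of these genes Itga6 alone passed.

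The 4 collagen-binding alpha chains, which all pair with Itgb1, went in different directions and edgeR called 0 of them (1 higher and 1 lower at an unadjusted p under 0.05). Itga1 had the lowest fold change of the members, at 21.2 and 27.1 CPM after ovariectomy and 43.2 and 39.5 CPM in sham cells. Both ovariectomy libraries lay below both sham libraries (1.71-fold lower, log2 fold change of -0.78 ± 0.18 SE, edgeR adjusted p = 0.0665), and it was called lower with the DESeq2 test (adjusted p = 0.0123) and with limma-voom (0.0359). Itga11, the collagen I receptor of fibroblasts and osteogenic cells, had 68.8 and 89.9 CPM after ovariectomy and 47.6 and 56.6 CPM in sham cells (log2 fold change of 0.61 ± 0.18 SE, edgeR adjusted p = 0.116, 0.0279 with the DESeq2 test). Itga10, the collagen II receptor of chondrocytes, had 39.6 and 42.4 CPM after ovariectomy and 49.7 and 52.7 CPM in sham cells (log2 fold change of -0.32 ± 0.14 SE, edgeR adjusted p = 0.287). The cartilage receptor was thus lower and the collagen I receptor higher in both ovariectomy libraries, with neither past the threshold. Itga10 shares 33.5% of its exon length with another annotated gene, Gm42957, so its reads carry that uncertainty. Itga2, the platelet and epithelial collagen receptor, had between 0.714 and 1.87 CPM in the 4 libraries and overlapped between groups.

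Of the 4 alpha chains that bind RGD, edgeR called 0 (1 higher at an unadjusted p under 0.05). Itga5, the fibronectin receptor and the most abundant alpha chain, came nearest, with 193 and 227 CPM after ovariectomy and 107 and 141 CPM in sham cells. The groups did not overlap (1.69-fold, log2 fold change of 0.76 ± 0.17 SE, edgeR adjusted p = 0.0527), and it was called higher with the DESeq2 test (adjusted p = 0.000114) and limma-voom (0.0168). Itgav, the CD51 antigen of the sort and the partner of Itgb3, Itgb5, Itgb6 and Itgb8, had 69.0 and 72.0 CPM after ovariectomy and 70.4 and 67.3 CPM in sham cells. Its log2 fold change of 0.03 ± 0.13 SE was near 0 (edgeR adjusted p = 0.942) and turned to -0.01 under upper-quartile scaling. Itgav thus overlapped between the groups, and its partner Itgb8 rose. Both groups were sorted on CD51, the product of Itgav, and the part of the sort in the Itgav level was not tested.

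Itga8, the receptor of nephronectin, overlapped between groups at 8.58 and 12.4 CPM after ovariectomy and 9.86 and 14.3 CPM in sham cells. Itga2b, the platelet fibrinogen receptor, had 6.34 and 6.60 CPM after ovariectomy and 1.07 and 6.06 CPM in sham cells, so that only sham 1 stood apart. Its log2 fold change was 0.86 ± 0.69 SE (edgeR adjusted p = 0.601), 0.10 without sham 1 and 2.60 without sham 2, where it was called (edgeR adjusted p = 0.00340). The summed megakaryocyte and platelet markers had 12.7 and 15.0 CPM after ovariectomy and 13.6 and 24.9 CPM in sham cells, with 0 of 9 called by edgeR (2 lower at an unadjusted p under 0.05). Itga9, which binds tenascin C and osteopontin, had 6.30 and 5.30 CPM after ovariectomy and 1.61 and 2.36 CPM in sham cells (2.92-fold, log2 fold change of 1.55 ± 0.42 SE, edgeR adjusted p = 0.0991). Itga4, the VCAM-1 and fibronectin receptor of leukocytes and progenitors, had 1.86 and 3.53 CPM after ovariectomy and 1.78 and 2.40 CPM in sham cells.

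Levels of different genes were compared within a library as TPM, which divides counts by the exon length of the gene. By group mean TPM, Sdc4, Sdc2 and Itgb1 ranked highest of the 34 members in both groups. Itgb1 made up 80.8% and 78.0% of the summed beta chain TPM after ovariectomy and 82.1% and 78.8% in sham cells. The alpha chains were more mixed. Itga5 made up 49.4% and 48.8% of the alpha chain TPM after ovariectomy and 38.3% and 42.4% in sham cells, and the 4 collagen-binding chains together 28.3% and 29.0% after ovariectomy and 37.6% and 35.0% in sham cells. Itga10 alone made up 9.63% and 8.68% after ovariectomy and 17.0% and 15.1% in sham cells, while Itga11 made up 16.9% and 18.6% after ovariectomy and 16.4% and 16.4% in sham cells. The share of the fibronectin receptor was thus higher and the summed share of the collagen receptors lower in both ovariectomy libraries, with Itga11 going against that sum. These shares are given as a description and were not tested.

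**Figure D4:**
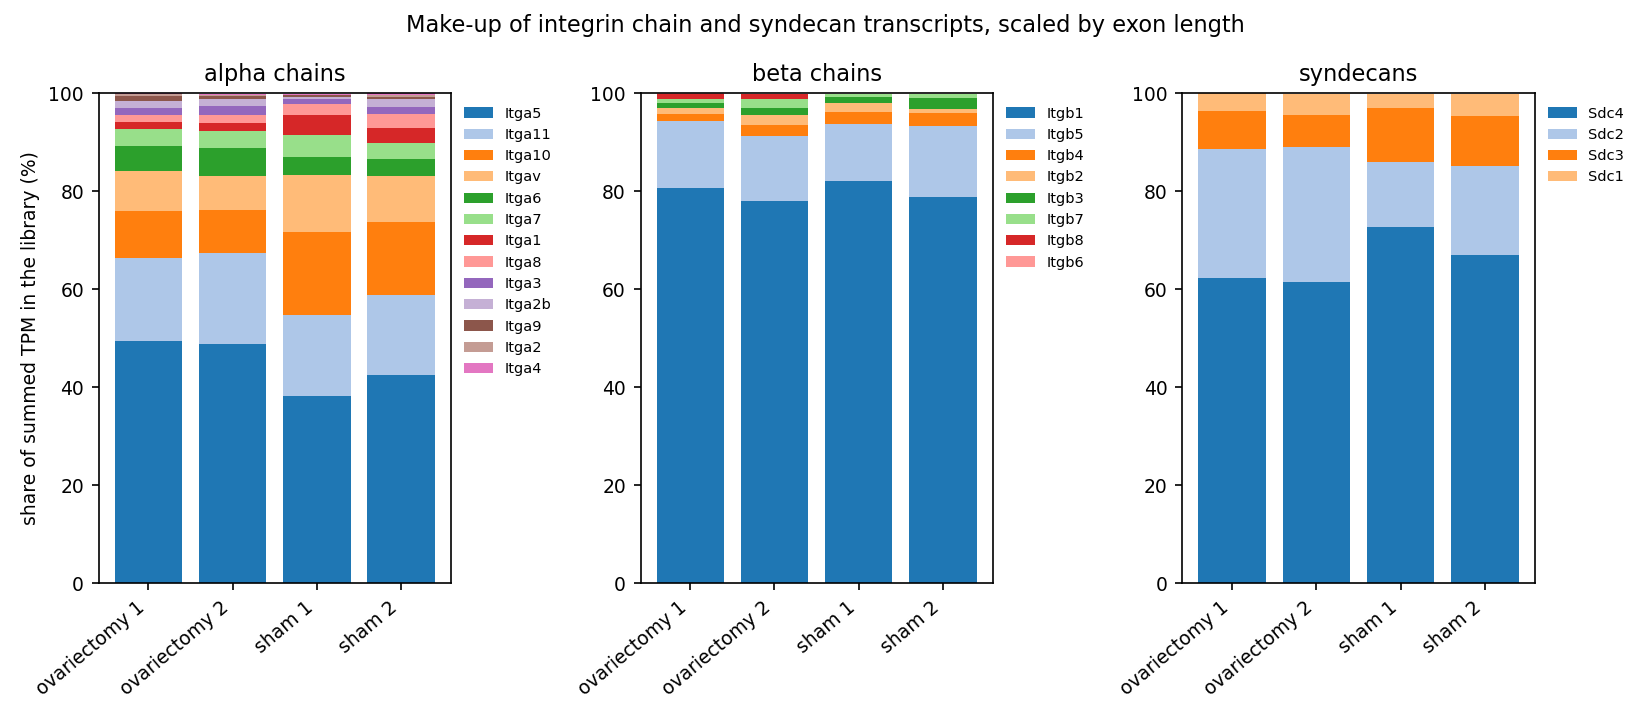
Stacked bars of the share of summed TPM (y axis, percent) that each alpha chain, beta chain and syndecan held in each of the 4 libraries, with ovariectomy libraries left of sham libraries. Itga5 and Sdc2 hold larger shares in both ovariectomy libraries, and Itgb1 holds between 78.0% and 82.1% of the beta chains in all 4.

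Ratios of TPM between related chains were also taken within each library. Itgb8 stood at 0.175 and 0.175 of the TPM of Itgav after ovariectomy and at 0.00369 and 0.0219 in sham cells. Itgb4 stood at 0.388 and 0.419 of the TPM of Itga6 after ovariectomy and at 0.864 and 0.922 in sham cells. Of that pair, Itga6 rose and Itgb4 overlapped between groups. Itga11 stood at 1.76 and 2.14 times the TPM of Itga10 after ovariectomy and at 0.967 and 1.09 times in sham cells.

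Of the collagen receptor kinases, Ddr2, the form of mesenchymal cells that responds to fibrillar collagen, had 236 and 238 CPM after ovariectomy and 178 and 172 CPM in sham cells. The libraries of each group nearly coincided and the groups stood apart, but the 1.35-fold difference did not pass (log2 fold change of 0.44 ± 0.11 SE, edgeR adjusted p = 0.0837) and was called with the DESeq2 test (adjusted p = 0.00875). Ddr1, the epithelial form, overlapped at 37.8 and 41.3 CPM after ovariectomy and 36.1 and 54.4 CPM in sham cells.

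Of the 4 syndecans, Sdc2 (ENSMUSG00000022261, chr15:32920723-33034935, plus strand) was called higher. It had 567 and 568 CPM after ovariectomy and 228 and 279.9 CPM in sham cells. The ovariectomy libraries coincided, and the mean of 568 ± 0.146 CPM after ovariectomy against 254 ± 36.7 CPM in sham cells (SD, n = 2 each) was a 2.23-fold increase (a log2 fold change of 1.16 ± 0.13 SE, edgeR adjusted p = 0.00537). Sdc2 made up 26.2% and 27.6% of the syndecan TPM after ovariectomy and 13.3% and 18.1% in sham cells. Sdc4, the syndecan of focal adhesions, stayed the most abundant, with 975 and 914 CPM after ovariectomy and 897 and 747 CPM in sham cells (log2 fold change of 0.20 ± 0.12 SE, edgeR adjusted p = 0.455). Sdc1, the syndecan of epithelia and plasma cells, had 82.2 and 97.0 CPM after ovariectomy and 53.7 and 75.6 CPM in sham cells (log2 fold change of 0.47 ± 0.19 SE, edgeR adjusted p = 0.245). Sdc3, known from nerve and cartilage, overlapped, at 287 and 227 CPM after ovariectomy and 321 and 269.6 CPM in sham cells.

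Inside the cell, Fermt2 (kindlin-2, ENSMUSG00000037712, chr14:45458795-45530118, minus strand), which binds beta chain tails beside talin and is the kindlin of mesenchymal cells, had the smallest p of the members. It had 293 and 308 CPM after ovariectomy and 119 and 102 CPM in sham cells. Both groups were tight and far apart, at 301 ± 10.7 CPM after ovariectomy and 111 ± 12.6 CPM in sham cells (SD, n = 2 each), a 2.72-fold increase (a log2 fold change of 1.44 ± 0.13 SE, edgeR adjusted p = 0.00340). Tln1, the talin that acts with it, had 106 and 134 CPM after ovariectomy and 112 and 102 CPM in sham cells and overlapped. Per exon length, Fermt2 stood at 5.23 and 4.33 times Tln1 after ovariectomy and at 2.01 and 1.88 times in sham cells.

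Vcl (vinculin), which reinforces the link of talin to actin, had 37.1 and 37.7 CPM after ovariectomy and 18.6 and 23.3 CPM in sham cells. The groups did not overlap and the 1.78-fold difference lay just over the threshold (log2 fold change of 0.83 ± 0.18 SE, edgeR adjusted p = 0.0527), while DESeq2 called it (adjusted p = 0.00801). Vcl shares 25.5% of its exon length with Ap3m1. Ptk2 (focal adhesion kinase) had 49.0 and 49.7 CPM after ovariectomy and 43.8 and 46.3 CPM in sham cells (log2 fold change of 0.13 ± 0.14 SE, edgeR adjusted p = 0.709). Pxn (paxillin), a scaffold of focal adhesions, overlapped at 64.0 and 69.7 CPM after ovariectomy and 78.9 and 65.4 CPM in sham cells. Ilk (integrin-linked kinase) had only 59 and 53 counts after ovariectomy and 43 and 49 counts in sham cells. Of its exon length, 89.7% lies within exons of Rrp8 or Taf10, so its count says little about its level, and its log2 fold change of 0.35 ± 0.50 SE was not called (edgeR adjusted p = 0.804).

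The promoters of Fermt2, Itgbl1, Itgb8 and Vcl are shown because the first 3 were called and Vcl, a partner of Fermt2 in focal adhesions, lay next to the threshold and was added after its values and matches were seen. The windows run from 250 bases before to 50 bases after the start site in RefSeq (GRCm38.p6), 5′ to 3′ on the gene's strand: chr14:45530016-45530315 (minus strand) for Fermt2, chr14:20929148-20929447 (plus) for Vcl, chr14:123659890-123660189 (plus) for Itgbl1 and chr12:119238227-119238526 (minus) for Itgb8. Capitals mark matches on either strand to the motifs of Sp/KLF factors (GGGCGG), AP-1 (TGANTCA), TEAD (GGAATG), Runx (TGTGGT) and CRE-binding factors (TGACGTCA) and to the CArG box of serum response factor.
Fermt2: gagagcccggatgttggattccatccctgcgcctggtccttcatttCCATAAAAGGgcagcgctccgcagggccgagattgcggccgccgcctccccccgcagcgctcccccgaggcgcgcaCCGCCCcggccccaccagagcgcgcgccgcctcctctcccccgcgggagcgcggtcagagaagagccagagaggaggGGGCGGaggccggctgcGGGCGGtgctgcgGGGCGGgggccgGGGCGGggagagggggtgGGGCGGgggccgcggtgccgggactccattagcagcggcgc
Vcl: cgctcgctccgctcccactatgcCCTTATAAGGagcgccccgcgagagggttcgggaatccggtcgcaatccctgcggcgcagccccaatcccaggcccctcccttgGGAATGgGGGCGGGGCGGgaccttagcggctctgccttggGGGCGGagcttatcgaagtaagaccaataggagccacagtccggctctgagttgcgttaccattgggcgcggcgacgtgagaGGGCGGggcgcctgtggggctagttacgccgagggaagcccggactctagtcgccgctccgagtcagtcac
Itgbl1: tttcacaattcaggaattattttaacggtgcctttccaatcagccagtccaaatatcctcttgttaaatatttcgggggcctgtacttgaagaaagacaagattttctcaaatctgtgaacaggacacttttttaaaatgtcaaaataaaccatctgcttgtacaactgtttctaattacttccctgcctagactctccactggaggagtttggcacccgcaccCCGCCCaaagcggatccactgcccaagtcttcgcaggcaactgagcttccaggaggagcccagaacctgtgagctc
Itgb8: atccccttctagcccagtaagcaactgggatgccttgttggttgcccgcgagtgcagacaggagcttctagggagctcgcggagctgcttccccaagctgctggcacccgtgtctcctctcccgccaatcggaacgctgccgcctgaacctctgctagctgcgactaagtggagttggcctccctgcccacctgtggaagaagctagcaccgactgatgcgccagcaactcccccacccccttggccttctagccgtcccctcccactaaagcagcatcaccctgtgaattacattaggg
The other called genes, Sdc2 and Itga6, had no window. The 4 windows differed widely. That of Fermt2 was 76.7% G or C and held 6 Sp/KLF matches and 1 CArG match, which began 204 bases before the start. The median of all windows was 52.7% G or C, and 97.3% of them lay below the window of Fermt2. The Sp/KLF motif is itself all G or C, and its relation to the G and C content of the windows was not tested. That of Vcl was 66.7% G or C and held 4 Sp/KLF matches, of which a pair overlapped by a base, 1 TEAD match beside them and 1 CArG match 227 bases before the start. That of Itgbl1 was 45.3% G or C with 1 Sp/KLF match, and that of Itgb8 was 60.7% G or C with 0 matches. Over all 32851 windows, 35.7% held a Sp/KLF match, 14.7% a TEAD match, 7.81% an AP-1 match, 16.8% a Runx match, 1.79% a CRE match and 1.63% a CArG match. Of the 32 windows of the 26 members with one, 18 held a Sp/KLF match (56.25%), 3 a TEAD match (9.375%) and 3 an AP-1 match (9.375%). A Runx match was in 5 (15.62%), a CRE match in 0 and a CArG match in 3 (9.375%). The third window with a CArG match was one of Itgb6, which was not tested. A match describes the letters only and is no evidence of binding.

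**Figure D5:**
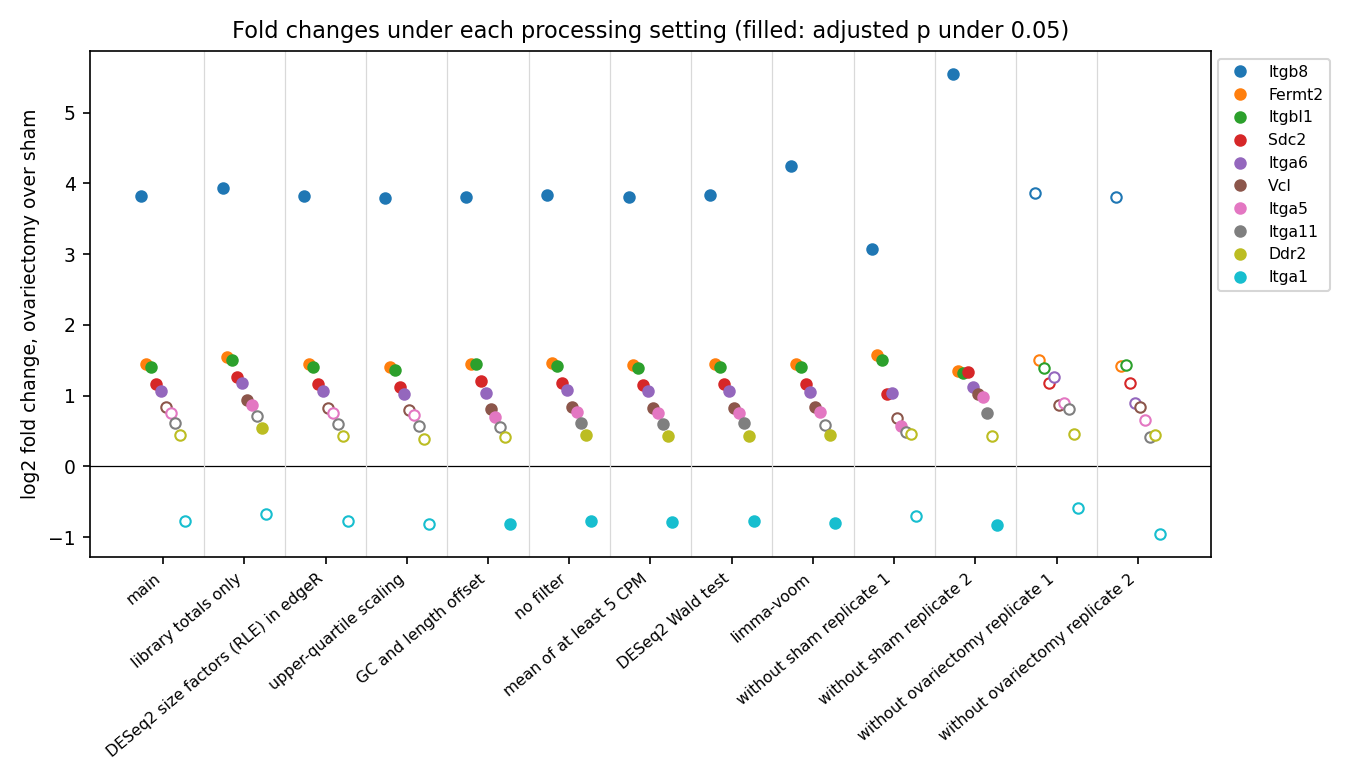
Log2 fold change, ovariectomy over sham (y axis), of 10 members under the reported fit and each alternative that changes the scaling, filter, test or libraries (x axis). Filled points have an adjusted p under 0.05: Itgb8, Fermt2, Itgbl1, Sdc2 and Itga6 are filled except where an ovariectomy library is left out, and Vcl, Itga5, Itga11, Ddr2 and Itga1 are filled under some settings.

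The ligands of these receptors moved both ways. Of 30 tested ligand genes, 7 were called higher (23.3%) and 5 lower (16.7%), beside 2.98% and 1.2% of all tested genes. Their median log2 fold change was 0.16. At an unadjusted p under 0.05 there were 12 higher and 9 lower, beside 10.6% and 7.83% of all tested genes. The DESeq2 test called 9 higher and 6 lower, beside 5.54% and 2.89% of the genes it tested. Vcam1, the cell surface ligand of alpha 4 beta 1, had 43.5 and 54.2 CPM after ovariectomy and 14.9 and 12.7 CPM in sham cells, a 3.53-fold increase (a log2 fold change of 1.82 ± 0.19 SE, edgeR adjusted p = 0.00470). Col4a1, a basement membrane collagen, rose 6.44-fold, to 131 and 171 CPM after ovariectomy against 17.7 and 29.3 CPM in sham cells (edgeR adjusted p = 0.00428). Against these, Spp1 (osteopontin), an RGD ligand of alpha v beta 3, fell 1.90-fold, to 3241 and 3129 CPM after ovariectomy against 5830 and 6284 CPM in sham cells (edgeR adjusted p = 0.00426), and Col2a1, the cartilage collagen bound by Itga10, fell 1.80-fold (edgeR adjusted p = 0.00434). Ligands of bone and cartilage matrix were thus among the lower genes, and a basement membrane collagen among the higher ones. The other called ligands were Fn1, Ccn2, Col3a1, Col4a2 and Lamb2, which were higher, and Ibsp, Thbs1 and Mfge8, which were lower. Spp1, Ibsp and Col2a1 also belong to the osteoblast and chondrocyte marker lists above. Spp1 shares 18.8% of its exon length with the annotated gene Gm42793.

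Of 40 other focal adhesion genes, 3 were called higher and 0 lower (15 and 1 at an unadjusted p under 0.05, 9 and 0 with the DESeq2 test), with a median log2 fold change of 0.22. The shares of all genes beside these counts are 2.98% higher and 1.2% lower for the adjusted calls, 10.6% and 7.83% at the unadjusted p and 5.54% and 2.89% with the DESeq2 test. Rap1b, the small GTPase that recruits talin to integrins, had 189 and 181 CPM after ovariectomy and 86.8 and 99.6 CPM in sham cells, a 1.98-fold increase (edgeR adjusted p = 0.00829). Pdlim7, an actin-bound LIM protein, had 169.8 and 171 CPM after ovariectomy and 83.2 and 91.9 CPM in sham cells (1.94-fold, edgeR adjusted p = 0.00815), and Tns1 (tensin 1), which ties beta tails to actin, rose 1.64-fold (edgeR adjusted p = 0.0466). Of 19 tested other matrix receptors, 2 were called higher and 1 lower, with a median of 0.09. At an unadjusted p under 0.05 there were 5 higher and 2 lower, and the DESeq2 test called 5 higher and 1 lower. The same shares of all genes stand beside these counts. Cd44, the hyaluronan receptor, had 195 and 195 CPM after ovariectomy and 48.1 and 52.5 CPM in sham cells, a 3.87-fold increase (a log2 fold change of 1.95 ± 0.13 SE, edgeR adjusted p = 0.000795). Cd47, a thrombospondin receptor that associates with beta 3 integrins, rose 1.62-fold (edgeR adjusted p = 0.0440), and Gpc6, a glypican, fell 1.74-fold (edgeR adjusted p = 0.0466). Of the 5 leukocyte alpha chains, 2 were tested and edgeR called 0 of them (0 at an unadjusted p under 0.05, 0 with the DESeq2 test). Itgal had between 1.20 and 2.60 CPM and Itgae between 0.579 and 1.40 CPM in the 4 libraries.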

How the data were processed

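Bulk RNA-seq of 4 libraries was used. The authors deposited raw read counts per Ensembl gene, not normalized. The tools named in the submitters' processing notes are Trim Galore 0.6.6 for trimming and featureCounts 2.0.1 for counting, with the build GRCm38 (mm10). Which aligner, annotation release and strand setting were used is not given in the sources used here, so reads of overlapping genes cannot be told apart. GENCODE M21 (GRCm38) named 55227 of 55487 IDs and all 34 members. Genes with at least 0.433 CPM (10 counts at the median library) in 2 libraries were kept by filterByExpr (17120 genes). Counts were scaled by TMM and compared with the two-sided quasi-likelihood test of edgeR 4.0.16 in R 4.3.3, on group alone, with Benjamini-Hochberg adjustment over all tested genes. The SE is the log2 fold change divided by the square root of F. TPM used the exon length of each gene. A read amounts to 0.0423 to 0.0519 CPM, depending on the library. Alternatives used DESeq2 1.42.0, limma 3.58.1 (voom), other scalings and filters, an offset for GC content and length, a replicate block, and each library left out. The fits were also run on simulated counts with known fold changes, and the outcome is not given here, so it lends no weight to the calls. Within groups, counts differed by more than sampling noise (chi-square per degree of freedom 14.8 for ovariectomy and 31.7 for sham). All 34 members are named. Of the other pathway lists, up to 4 called genes by smallest p are described, or 2 where none was called, and the other called ligands are named alone. The members and lists were chosen with earlier results of these data known.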

Additional observations from a re-analysis of the deposited data

How the results depend on the processing

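With 2 libraries a group, a member that did not pass is not shown to be level, and members near 1 CPM, such as Itgb8 in sham cells, rest on few reads. Of 456 member values under alternatives, 393 kept their direction and side of the threshold. Members called higher numbered 5, against 8 with library totals only, limma-voom or the replicate block, 9 with no filter or at a mean of 5 CPM, 10 with the DESeq2 test and 0 to 11 when a library was left out. Members called lower numbered 0, against 1 with the GC and length offset, no filter, a mean of 5 CPM, the DESeq2 test, limma-voom or the replicate block, and 0 to 1 when a library was left out.

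Of all genes, 510 were called higher, against 1112 with no filter, 930 with DESeq2 and 0 to 1277 when a library was left out. Lower genes numbered 206, against 544 with no filter, 406 at a mean of 5 CPM, 486 with DESeq2, 313 with limma-voom, 329 with the replicate block and 0 to 558 when a library was left out. Higher genes were 71.2% of calls and 82.2% with library totals only, which moved the median gene to 0.09. Ligands called lower numbered 8 with no filter, and 0 to 7 when a library was left out, and those called higher 0 to 8. Other focal adhesion genes called higher numbered 6 with library totals only, 10 with no filter, 7 at a mean of 5 CPM or with the replicate block, 9 with DESeq2, 5 with limma-voom and 0 to 9 when a library was left out. Other matrix receptors called higher numbered 5 with library totals only, no filter, a mean of 5 CPM, DESeq2, limma-voom or the replicate block, and 0 to 6 when a library was left out, and those called lower numbered 0 with library totals only and 0 to 1 when a library was left out. The cause of these differences was not tested.

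Of the member values, 14 changed sign, all in genes that were not called. The log2 fold change of Itgav was -0.0095 with upper-quartile scaling and -0.00048 with the GC and length offset, and that of Itgb4 was 0.039 with library totals only. When a library was left out, the range was -0.27 to 1.12 for Itga2, -0.48 to 0.10 for Itga8, -0.16 to 0.77 for Itga4, -0.62 to 0.47 for Itgb3, -0.31 to 0.16 for Itgb4, -0.46 to 0.14 for Ddr1, -0.0048 to 0.34 for Tln1 and -0.23 to 0.035 for Pxn.

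With the length of the longest protein-coding transcript in place of the exon length, the share of Itga6 among alpha chains was 9.09% after ovariectomy and 6.08% in sham cells, that of Itga5 was 44.9% and 36.8%, and that of the collagen-binding chains was 24.8% and 32.2%, in the same order. After ovariectomy the RGD-binding chains held 57.8%, Itgb8 1.33% of the beta chains and Sdc2 25.7% of the syndecans.

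Same-numbered libraries share only a number: their deviations from the group means correlated at 0.0522 over 10087 genes, and there are fewer than 3 pairs. With the replicate block, 8 members were called higher and 1 lower, and of the members the calls of Itga1, Itga5, Itga11 and Vcl were gained and 0 were lost. Over all genes, 745 were then called higher and 329 lower.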
